A study of Homo sapiens with 6 samples.

Results

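IL-24, IL-19 and IL-20 are cytokines of the IL-10 family that form the IL-20 subfamily, and 7 genes are described here: the ligand genes IL24, IL19 and IL20 and the receptor chain genes IL20RA, IL20RB, IL22RA1 and IL10RB. They were chosen by gene symbol from the 60591 genes of a table of raw read counts, after the higher IL24 count in cells given TPA had been seen. All 7 were in the table, and 4 of them (IL24, IL20RB, IL22RA1 and IL10RB) had enough reads to pass a filter on low counts that 21825 genes passed. RNA was sequenced from KYSE150, an established cell line from a human oesophageal squamous cell carcinoma (ESCC), with 3 TPA libraries and 3 DMSO libraries. TPA is a phorbol ester that activates protein kinase C. It was given at 10 ng/ml for 24 h to cells kept overnight in medium without serum, and the labels state no dose or time for DMSO, a solvent. KYSE150 is a single cell line, and the labels name no engineered allele in either group.

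The ligands act through pairs of receptor chains. In the type I receptor IL20RA joins IL20RB and binds IL-19, IL-20 and IL-24, and in the type II receptor IL22RA1 joins IL20RB and binds IL-20 and IL-24. IL22RA1 also joins IL10RB to form the receptor of IL-22, and IL10RB serves the receptors of IL-10, IL-26 and the lambda interferons with other partners. Bound receptors signal mainly through the kinase JAK1 and the transcription factor STAT3. In skin and other epithelia the subfamily is known for links between inflammation, wound repair and keratinocyte differentiation, and IL-24 was first cloned from differentiating melanoma cells, as MDA7.

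The 3 ligand genes lie in a row on chromosome 1 and are read in the same direction. Their promoters are shown beside that of C1orf116, the 1 other tested gene within 300 kb of IL24 that was called higher with TPA. GENCODE 29 places IL19 (ENSG00000142224.15) at 206798870 to 206842981 on GRCh38, IL20 (ENSG00000162891.10) at 206865354 to 206869223 and IL24 (ENSG00000162892.15) at 206897443 to 206904139. The sequences are those of RefSeq on GRCh38.p14, each with 250 bases before and 50 after a transcript start. Capitals mark matches on either strand to AP-1 (TGANTCA), CRE (TGACGTCA), NF-kB (GGG, any 2 bases, TT, any base, CC), C/EBP (TTGCNNAA), STAT (TTCNNNGAA) or TATA (TATANA) letters, and overlapping matches share their capitals. Promoters were found for all 7 members. IL24 (chr1:206897193-206897492, plus strand), IL20 (the first of its 2 starts, chr1:206863315-206863614, plus strand), IL19 (the first of 2 starts, chr1:206770523-206770822, plus strand) and C1orf116 (chr1:207032707-207033006, minus strand) read, 5′ to 3′:
IL24: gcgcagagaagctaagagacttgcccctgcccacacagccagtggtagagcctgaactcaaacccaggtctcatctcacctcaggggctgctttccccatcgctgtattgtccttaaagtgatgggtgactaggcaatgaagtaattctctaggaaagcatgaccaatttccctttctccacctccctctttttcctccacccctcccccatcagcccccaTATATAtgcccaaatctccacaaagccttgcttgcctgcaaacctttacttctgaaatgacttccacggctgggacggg
IL20: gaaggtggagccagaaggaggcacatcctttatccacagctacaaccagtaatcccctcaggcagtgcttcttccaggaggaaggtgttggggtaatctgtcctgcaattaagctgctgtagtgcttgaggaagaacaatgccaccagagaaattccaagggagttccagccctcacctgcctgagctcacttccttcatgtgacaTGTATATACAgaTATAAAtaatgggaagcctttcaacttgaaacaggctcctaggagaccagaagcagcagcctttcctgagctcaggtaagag
IL19: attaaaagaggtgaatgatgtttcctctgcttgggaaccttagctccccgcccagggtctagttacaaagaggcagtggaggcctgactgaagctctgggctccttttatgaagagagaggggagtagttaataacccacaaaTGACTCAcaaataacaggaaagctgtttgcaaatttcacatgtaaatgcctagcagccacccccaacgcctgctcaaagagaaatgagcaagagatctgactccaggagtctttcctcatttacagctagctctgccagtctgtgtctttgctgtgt
C1orf116: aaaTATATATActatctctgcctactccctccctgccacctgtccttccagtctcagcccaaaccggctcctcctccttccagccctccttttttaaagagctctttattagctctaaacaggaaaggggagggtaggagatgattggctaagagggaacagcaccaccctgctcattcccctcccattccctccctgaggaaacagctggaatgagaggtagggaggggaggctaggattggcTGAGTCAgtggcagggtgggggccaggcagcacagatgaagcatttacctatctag

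The IL24 promoter held 1 of these motifs, TATATA at 29 bases before the start. TATA letters stood in 19.0% of the 35116 promoters of this length. IL20's first promoter held 4 overlapping or neighbouring TATA matches between 44 and 32 bases before the start, and the window at its other start held none of the 6 motifs. An AP-1 match, TGACTCA, lay 107 bases before the first IL19 start. This start lies before the IL19 position given by GENCODE 29, inside the position of the gene IL10 (206767602 to 206772494). Another AP-1 match, TGAGTCA, lay 6 bases before the start of C1orf116. FCMR, which lies nearer to IL24 and was higher with TPA without passing, had 2 starts, and their windows held none of the 6 motifs. AP-1 letters stood in 7.71% of all promoters. The matches describe the letters of these windows and not bound sites. Among the receptor chains, the IL22RA1 promoter held an AP-1, a C/EBP and an NF-kB match and the IL20RB promoter held none of the 6 motifs. IL10RB held a STAT match, TTCCCGGAA, at 12 bases after its start, the second IL19 start had one 217 bases before it, and the second IL20RA start had TATAAA 32 bases before it. C/EBP letters stood in 10.5%, NF-kB letters in 5.68%, STAT letters in 7.66% and CRE letters in 1.85% of all promoters.

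Treatment was not the only thing that set the libraries apart, and this touches several members. Totals ran from 28915283 to 33965547 counts in TPA and from 27702329 to 30207144 in DMSO. CPM here are counts divided by the scaled library size, per 1000000. In log2 CPM over 13735 genes TPA 1 was nearer to DMSO 1 (r = 0.965) than to TPA 2 (0.872) or TPA 3 (0.892). The most alike were TPA 2 and TPA 3 at 0.996, and DMSO 2 and DMSO 3 at 0.995. Chi-square statistics of 7.03 and 8.46 per degree of freedom showed more difference between their counts than sampling gives, so each was kept as a sample of its own. Values of the members are therefore also given without both libraries numbered 1. All 9 squamous keratinocyte markers (keratins, TP63 and desmosome genes among them) passed the filter, with summed levels of 707 to 1610 CPM in TPA and 1190 to 3040 CPM in DMSO. KRT5 made up much of these sums, at 66.7, 490 and 509 CPM in TPA 1, 2 and 3, against 428, 1740 and 1780 CPM in DMSO 1, 2 and 3. Of the 9 markers 0 were called, beside 1.26% of all tested genes. With the replicate number as a block 1 was called higher and 3 lower, beside 4.58% and 6.52% of all tested genes. Markers of leukocytes, which also make these ligands, summed to 12.7 to 13.5 CPM in TPA and 10.8 to 19.3 CPM in DMSO over 11 genes. CD3D and MS4A1 had no read in any library, and only CD3E, ITGAM and CSF1R passed the filter. ITGAM had 0.834, 1.71 and 1.79 CPM in TPA 1, 2 and 3, against 0.461, 0.488 and 0.391 CPM in DMSO 1, 2 and 3. CD3E went the other way without overlap, at 1.27, 1.21 and 1.04 CPM in TPA 1, 2 and 3, against 2.21, 3.81 and 2.87 CPM in DMSO 1, 2 and 3. CSF1R overlapped, with a log2 fold change of -0.08 ± 0.34 (SE). Melanocyte markers summed to 5.18 to 11.6 CPM in TPA and 8.06 to 13.5 CPM in DMSO, and fibroblast markers to 3.05 to 10.5 CPM in TPA and 5.2 to 12.2 CPM in DMSO. The part of these markers in the results below was not tested.

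IL24 was the ligand gene with reads in every library, and it was higher with TPA. It had 1510, 1054 and 1160 counts in TPA 1, 2 and 3, against 109, 45 and 40 counts in DMSO 1, 2 and 3. Scaled for depth, these were 54.7, 35.4 and 37.8 CPM in TPA and 3.59, 1.37 and 1.3 CPM in DMSO. The groups did not overlap, and the library numbered 1 was the highest in each group. Means were 42.7 ± 10.5 CPM in TPA and 2.09 ± 1.3 CPM in DMSO (SD, n = 3 each), and the fitted log2 fold change was 4.35 ± 0.48 (SE). Taken pair by pair, with libraries of the same number set against each other, log2 ratios were 3.93, 4.69 and 4.86 for numbers 1, 2 and 3. The fitted value was 5.0 without DMSO 1, 4.25 without TPA 1 and 4.92 without both. In bulk RNA a change in the share of cells that express a gene and a change in RNA per cell cannot be told apart.

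**Figure D1:**
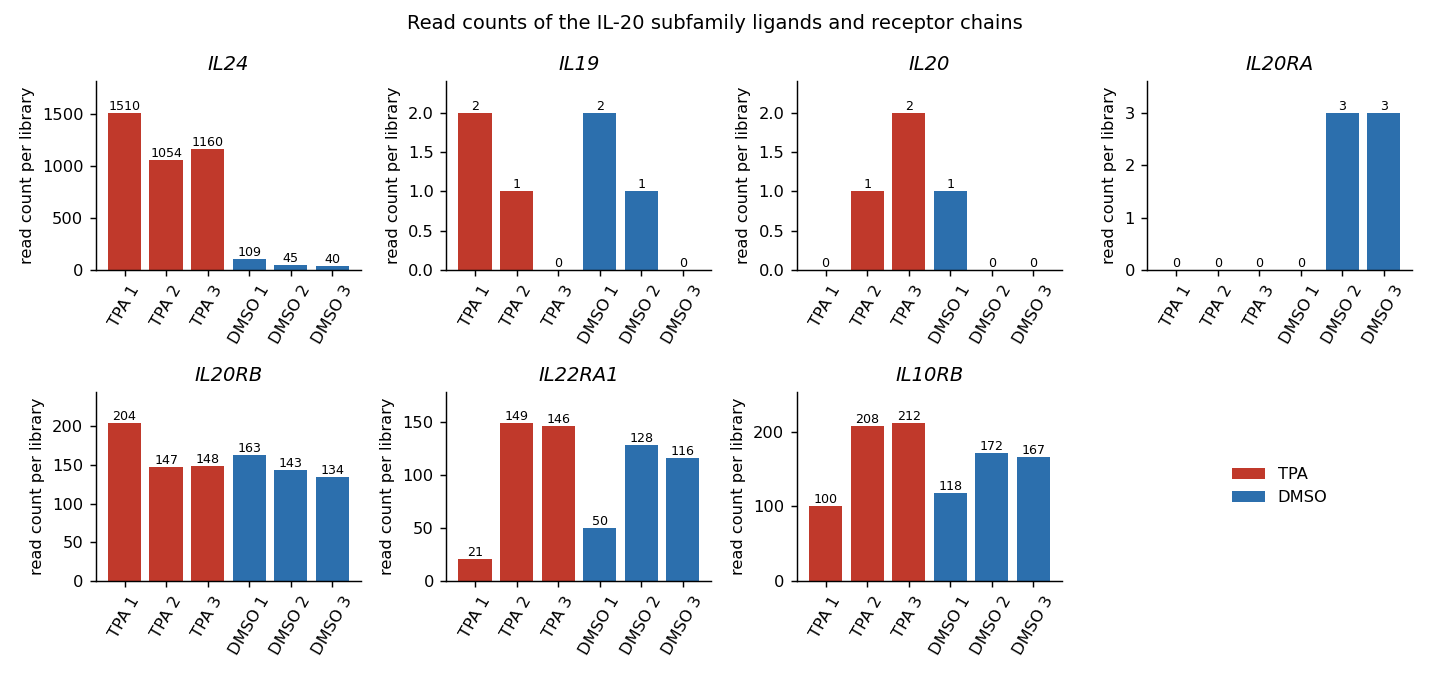
Read counts per library (y axis, from 0, a separate scale in each panel) of the 7 genes in TPA 1 to 3 (red) and DMSO 1 to 3 (blue), with the count above each bar. IL24 runs from 1054 to 1510 in TPA and from 40 to 109 in DMSO, IL19, IL20 and IL20RA have at most 3 counts in a library, and IL22RA1 and IL10RB are lowest in the libraries numbered 1.

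The size of this difference placed IL24 at rank 41 of 21825 tested genes by fitted log2 fold change, as a description of the gene by which the set was chosen. By level per kb of transcript among 13283 protein-coding genes that passed the filter, IL24 ranked 2156, 3564 and 3362 in TPA 1, 2 and 3. Its ranks were 10136, 11408 and 11484 in DMSO 1, 2 and 3. The gene thus stood in the lower part of the expressed genes in DMSO and in the upper part in TPA. Of the 4 members that passed the filter, 1 was called higher and 0 lower at an adjusted p under 0.05, where 1.26% of all tested genes were called in either direction and 0.861% higher. Since the set was chosen from this contrast, nothing is read from that count. Without TPA 3, DMSO 2 or DMSO 3 no member was called, as the counts over all genes fell to between 0 and 2 there. Without TPA 1, 2 members were called higher, where 24.6% of all genes were, and without both libraries numbered 1, 3 were, where 32.2% of all genes were.

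IL19 and IL20, the ligand genes before IL24 on the chromosome, had almost no reads in either group. IL19 had 2, 1 and 0 counts in TPA 1, 2 and 3, against 2, 1 and 0 in DMSO 1, 2 and 3. IL20 had 0, 1 and 2 counts in TPA, against 1, 0 and 0 in DMSO. A count of 0 allows up to 0.0978 to 0.109 CPM in a TPA library and 0.0915 to 0.0987 CPM in a DMSO library (3 counts over the scaled size, counting error only). Both genes were at or under that floor in both groups, so no fold change is given and a difference was not detectable at this depth. The 3 transcripts also differed in copies of ATTTA, the core of AU-rich elements linked to rapid mRNA decay. In the longest GENCODE coding transcript the 3′ untranslated region held 3 copies over 1083 bases for IL24, 1 over 360 bases for IL19 and 8 over 662 bases for IL20, and 65.0% of 19659 protein-coding genes held at least 1.

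Of the receptor chain genes, IL20RA had 6 counts over all libraries and the other 3 had low levels. IL20RA (chromosome 6, 136999971 to 137045180), the chain that sets the type I receptor apart from the type II receptor, had 0 counts in TPA 1, 2 and 3. It had 0, 3 and 3 counts in DMSO 1, 2 and 3. Summed over libraries it had 0 counts in TPA and 6 in DMSO. The DMSO counts were themselves close to the floor of 3 counts, so no fold change is given. DMSO 1 and TPA 1 were both at 0, so the 6 counts rest on DMSO 2 and DMSO 3.

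IL20RB (chromosome 3, 136946230 to 137011085), the chain that both IL-20 receptors share, had 7.4, 4.94 and 4.83 CPM in TPA 1, 2 and 3. In DMSO 1, 2 and 3 it had 5.37, 4.36 and 4.37 CPM. The groups overlapped, and in both of them the library numbered 1 was highest. The means were 5.72 ± 1.45 CPM in TPA and 4.7 ± 0.578 CPM in DMSO (SD, n = 3 each), with a log2 fold change of 0.28 ± 0.28 (SE) and of 0.32 ± 0.16 without both libraries numbered 1. Annotated genes overlap it: the end of NCK1 on the same strand, and the antisense gene IL20RB-AS1. The strand setting of the counts is not given in the sources used here, so reads of the antisense gene may be among these counts.

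IL22RA1 (chromosome 1, 24119771 to 24143121), the ligand-binding chain of the type II receptor and of the IL-22 receptor, varied more between library numbers than between groups. It had 0.761, 5.01 and 4.76 CPM in TPA 1, 2 and 3, against 1.65, 3.91 and 3.78 CPM in DMSO 1, 2 and 3. TPA 1 and DMSO 1 were the lowest libraries, and TPA 2 and TPA 3 the highest. Pair by pair the log2 ratio was -1.11 for number 1 and 0.36 and 0.33 for numbers 2 and 3, so the direction turned with the pair. The fitted log2 fold change was 0.18 ± 0.66 (SE), -0.06 ± 0.34 with the replicate number as a block, and 0.50 ± 0.17 without both libraries numbered 1. With a correction for each library's trend on the GC content of transcripts and the block it was -0.45 ± 0.25, and this transcript had the highest GC content of the 7 at 57.2%.

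IL10RB (chromosome 21, 33266358 to 33310187), the shared second chain of the IL-10, IL-22, IL-26 and lambda interferon receptors, had 3.63, 6.99 and 6.91 CPM in TPA 1, 2 and 3. Its values in DMSO 1, 2 and 3 were 3.88, 5.25 and 5.44 CPM. The libraries numbered 1 were again the lowest of their groups, and the groups overlapped. The fitted log2 fold change was 0.27 ± 0.33 (SE), 0.53 ± 0.15 without both libraries numbered 1 and 0.79 ± 0.32 with the GC correction and the block, at a transcript GC content of 39.8%. A read-through gene on the same strand, AP000295.1, overlaps IL10RB, and reads may be lost to it or shared with it.

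Set on a common scale of CPM per kb of the longest transcript, the order of the genes differed between the groups. In TPA IL24 averaged 23.5 ± 5.79, IL20RB 2.79 ± 0.709, IL10RB 2.74 ± 0.901 and IL22RA1 1.25 ± 0.852 CPM per kb (SD, n = 3). In DMSO IL20RB averaged 2.3 ± 0.282, IL10RB 2.28 ± 0.398, IL24 1.15 ± 0.714 and IL22RA1 1.11 ± 0.454 CPM per kb. Every TPA library had IL24 above all receptor chains, and every DMSO library had it below IL20RB. IL20RB and IL10RB did not differ beyond their spread in either group, nor did IL24 and IL22RA1 in DMSO. IL19, IL20 and IL20RA stayed under 0.05 CPM per kb in every library.

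**Figure D2:**
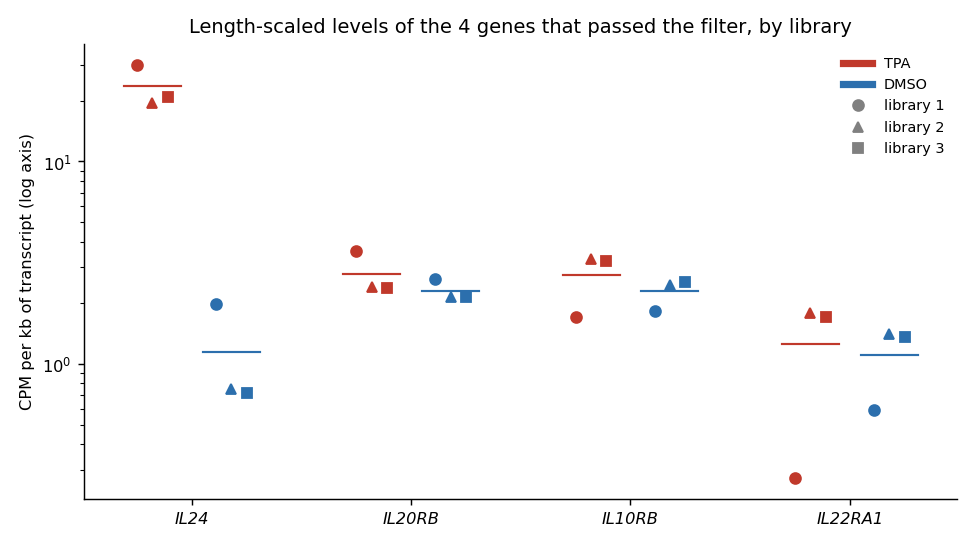
Levels in CPM per kb of the longest transcript (log axis) of the 4 genes that passed the filter, with TPA in red and DMSO in blue. Points are libraries, marked by their number, and lines are group means. IL24 lies at 19.5 to 30.1 in TPA and 0.716 to 1.97 in DMSO, while each receptor chain overlaps between the groups and IL22RA1 is lowest in the libraries numbered 1.

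By length-scaled level among the 13283 protein-coding genes, IL20RB ranked 8733 to 9419 in TPA and 9616 to 10107 in DMSO. IL10RB ranked 8602 to 10101 in TPA and 9774 to 10256 in DMSO. IL22RA1 ranked 9873 to 12159 in TPA and 10699 to 11649 in DMSO, so all 3 chains belonged to the lower part of the expressed genes. In their 3′ untranslated regions IL20RB and IL22RA1 held no ATTTA, IL10RB held 2 copies and IL20RA 7.

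Ratios between chains within a library do not depend on depth scaling. IL20RB over IL22RA1, the pair of the type II receptor, was 13.3, 1.35 and 1.39 per kb in TPA 1, 2 and 3, against 4.46, 1.53 and 1.58 in DMSO 1, 2 and 3. The type II pair was thus near balance in 4 libraries and tilted to IL20RB in both libraries numbered 1. IL20RA over IL22RA1 was at most 0.113, 0.016 and 0.0163 in TPA 1, 2 and 3, where IL20RA had no read (3-count floor). In DMSO 1 it was at most 0.0477, and in DMSO 2 and 3 it was 0.0186 and 0.0205. Reads of the type I chain were therefore a small part of those of its type II counterpart wherever the ratio could be formed. On the log2 scale IL20RB over IL10RB averaged 0.06 ± 0.89 in TPA and 0.02 ± 0.44 in DMSO (SD, n = 3 each). The sign turned with the library number: 1.09, -0.44 and -0.46 in TPA 1, 2 and 3, and 0.52, -0.21 and -0.26 in DMSO 1, 2 and 3. IL22RA1 over IL10RB averaged -1.48 ± 1.01 in TPA and -1.12 ± 0.44 in DMSO (SD, n = 3 each). Its values were -2.64, -0.87 and -0.93 in TPA 1, 2 and 3, and -1.63, -0.82 and -0.92 in DMSO 1, 2 and 3.

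Around IL24, within 300 kb on either side, 23 annotated genes were in the table and 8 passed the filter. Of the 7 besides IL24, 1 was called higher and 0 lower with TPA (edgeR quasi-likelihood test, adjusted over all genes), against 0.861% of all tested genes called higher and 0.394% lower, and 2 other genes had TPA libraries all above DMSO. Counting the called gene, 3 of 7 did not overlap in this direction, beside 14.3% of all tested genes. C1orf116 (207018521 to 207032756), a gene described as androgen-regulated, rose to 170, 197 and 190 CPM in TPA 1, 2 and 3, against 66.3, 85.2 and 87.9 CPM in DMSO 1, 2 and 3. Its log2 fold change was 1.22 ± 0.21 (SE, adjusted p = 0.0484). The call was lost with upper-quartile factors (adjusted p = 0.0514), with library size alone (0.0566) and without any one library other than TPA 1 (0.0849 to 0.314).

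FCMR (206904386 to 206923247), which encodes an Fc receptor for IgM, is the nearest neighbour: it lies on the other strand with its end 247 bases past the end of IL24. It had 155, 219 and 214 counts in TPA 1, 2 and 3, against 123, 112 and 94 counts in DMSO 1, 2 and 3. The groups did not overlap, but the difference did not pass (log2 0.92 ± 0.25, adjusted p = 0.0975, and 0.0522 with the replicate block). Without strand, reads that run past the end of IL24 cannot be told apart from reads of FCMR. MAPKAPK2, the gene of the kinase MK2 in the p38 pathway, had 67.1, 103 and 94.3 CPM in TPA 1, 2 and 3, against 53.3, 51.1 and 56.3 CPM in DMSO 1, 2 and 3. It did not overlap between the groups either, and did not pass (log2 0.72 ± 0.23, adjusted p = 0.131). The remaining tested neighbours were DYRK3 (0.55 ± 0.33), YOD1 (0.40 ± 0.77), EIF2D (0.19 ± 0.23) and PFKFB2 (-0.04 ± 0.35), with adjusted p from 0.366 to 0.956. With the GC correction and the block YOD1 was called higher (log2 0.62, adjusted p = 0.0226), beside 9.15% of all genes, while the other 3 were not (0.0537 to 0.511). YOD1 had 83.1, 12.9 and 16.4 CPM in TPA 1, 2 and 3, against 50.3, 18.2 and 16.6 CPM in DMSO 1, 2 and 3. Its log2 fold change was -0.10 without both libraries numbered 1. YOD1 lies inside PFKFB2 on the other strand, so their reads may be mixed. IL10, the anti-inflammatory cytokine gene at the other end of the cluster, had 5 counts over the TPA libraries and 7 over the DMSO libraries.

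**Figure D3:**
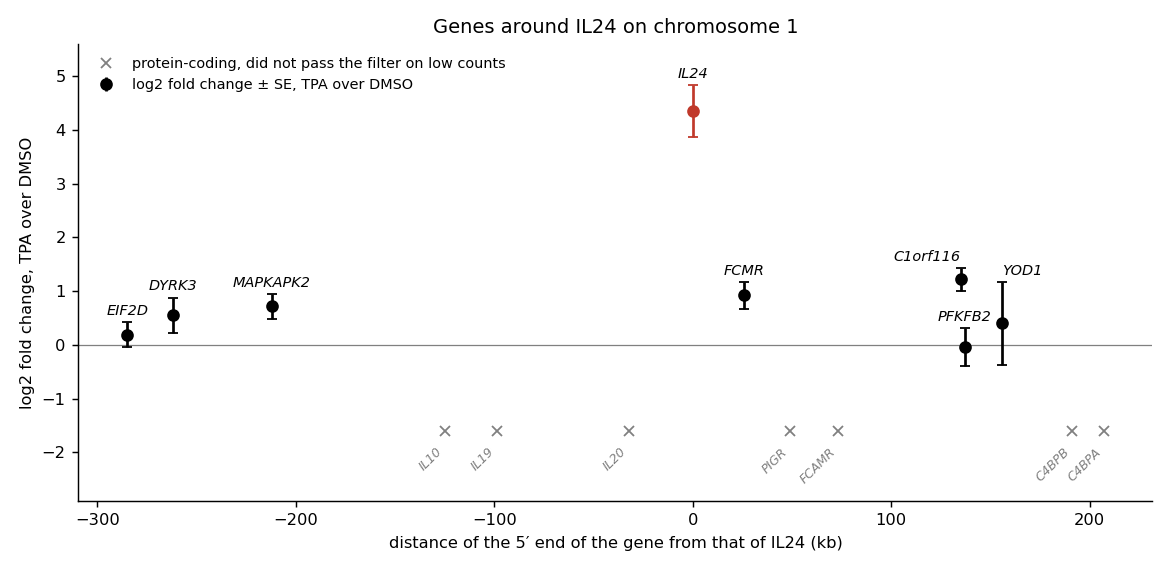
Fitted log2 fold change, TPA over DMSO, with SE bars (y axis) against the distance of each gene's 5′ end from that of IL24 in kb (x axis). Crosses mark protein-coding genes that did not pass the filter, placed at an arbitrary height. IL24 stands at 4.35, C1orf116 at 1.22 and the other tested genes between -0.04 and 0.92.

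Other ligands and receptors of the same class of cytokines were compared to see which partner chains the cells had. Of 18 such genes 7 passed the filter and 0 were called in either direction (edgeR quasi-likelihood), with 1 at an unadjusted p under 0.05, 1 called higher by DESeq2 and 0 by limma-voom. Over all tested genes 1.26% were called, 22.1% had an unadjusted p under 0.05 and DESeq2 called 7.8% higher. Limma-voom called 247 higher and 130 lower of all 21825. The median log2 fold change was -0.04, beside -0.11 over all tested genes. The ligand genes IL22, IL26, IFNB1 and IFNG had no read in any library, and neither had IL22RA2, which encodes a soluble decoy receptor of IL-22. IL10RA, the IL-10 binding chain, had 10 counts over the TPA libraries and 4 over the DMSO libraries, and IFNLR1, the lambda interferon chain, had 0 and 1. Of the chains known to pair with IL10RB, IL22RA1 was thus the one that passed the filter. IFNGR2, the second chain of the interferon gamma receptor, had 90.7, 131 and 129 CPM in TPA 1, 2 and 3, against 52.2, 53.7 and 53.3 CPM in DMSO 1, 2 and 3. All TPA libraries were higher, with a log2 fold change of 1.14 ± 0.22 that did not pass (adjusted p = 0.0590) and did with the replicate block (0.0185), which called 1 member higher and 0 lower, beside 4.58% of all genes higher. The epithelial interferon gene IFNE, named after its values were seen, had 3.01, 0.101 and 0.359 CPM in TPA 1, 2 and 3, against 2.04, 1.46 and 1.34 CPM in DMSO 1, 2 and 3. TPA 2 and TPA 3 were below all DMSO libraries and TPA 1 was above them (log2 -0.49 ± 0.97, adjusted p = 0.791). IFNGR1, the ligand-binding chain, had -0.40 ± 0.32 (adjusted p = 0.503), and IFNAR2, a chain of the type I interferon receptor that neighbours IL10RB, had 0.28 ± 0.28 (0.588).

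The genes that carry the signal from these receptors were nearly all expressed, and none passed, beside 1.26% of all tested genes. Of 27 genes for JAK kinases, STAT factors and their feedback inhibitors 26 passed the filter and 0 were called (edgeR quasi-likelihood). Of the 26, 8 had an unadjusted p under 0.05, and DESeq2 called 6 higher and limma-voom 0. Over all genes 22.1% had an unadjusted p under 0.05 and DESeq2 called 7.8% higher. Limma-voom called 247 of all tested genes higher and 130 lower. Their median log2 fold change was 0.09. TPA libraries lay all above DMSO for 8 of the 26 genes and all below for 2, beside 14.3% and 15.2% of all tested genes. With the replicate block 4 were higher and 1 lower, where 4.58% of all tested genes were higher and 6.52% lower (11.1% in all). With the GC correction and the block 5 were higher and 2 lower, where 9.15% were higher and 10.7% lower (19.9% in all). STAT6, the factor of IL-4 and IL-13 signalling, had 225 ± 38.8 CPM in TPA and 109 ± 4.7 CPM in DMSO (SD, n = 3 each; log2 1.04 ± 0.21, adjusted p = 0.0625, and 0.0232 with the block). SOCS1, a feedback inhibitor of JAK kinases, had 2.39, 2.82 and 2.41 CPM in TPA 1, 2 and 3, against 1.09, 1.1 and 1.21 CPM in DMSO 1, 2 and 3 (log2 1.17 ± 0.27, adjusted p = 0.0722, and 0.0433 with the block). STAT2, which serves interferon signalling, had 0.86 ± 0.21 (0.0747, and 0.0464 with the block).

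Among the 3 genes closest to IL-24 signalling, chosen after their values were seen, SOCS3, the feedback inhibitor that STAT3 induces, had 32.1, 51.6 and 47.6 CPM in TPA 1, 2 and 3. Its DMSO libraries 1, 2 and 3 had 22.5, 21.3 and 24.4 CPM. The groups did not overlap (log2 0.94 ± 0.25, adjusted p = 0.0889, and 0.0412 with the block). STAT3 itself had 167, 330 and 306 CPM in TPA 1, 2 and 3, against 159, 176 and 187 CPM in DMSO 1, 2 and 3, so TPA 1 lay among the DMSO libraries (log2 0.62 ± 0.28, adjusted p = 0.251). JAK1 had 122 ± 40.2 CPM in TPA and 125 ± 28 CPM in DMSO (SD, n = 3 each; log2 -0.04 ± 0.30, adjusted p = 0.945). SOCS6 was the member that the block called lower (log2 -0.95, adjusted p = 0.0307).

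Few of the genes known to respond to IL-22 and the IL-20 subfamily in epidermal keratinocytes passed the test. Of 19 such genes 10 passed the filter, 2 were called higher and 0 lower, and 8 did not pass the test, where 0.861% of all tested genes were called higher and 0.394% lower. The list mixes genes that these cytokines are known to raise with genes of terminal differentiation that they are known to lower. The 7 tested genes of the raised kind had a median log2 fold change of 1.45 (0.53 with GC correction and block), and both calls were among them. Their values ran from -1.07 to 3.9, and both medians are the value of S100A9 (1.45 ± 0.90, edgeR adjusted p = 0.383). S100A9 had 0.29 CPM in TPA 1, below all DMSO libraries. The 3 tested genes of the lowered kind had a median of 0.17 (-0.17 with GC correction and block). Values against the known direction, named after they were seen, occurred in both kinds. Of the genes known higher, LCN2 had -1.07 ± 0.60 and MMP3 -0.24 ± 0.75, and the other tested ones were above 0. Of those known lower, CDSN had 0.66 ± 0.26 and KRT10 0.17 ± 0.26, while FLG had -0.44 ± 0.41. None of these named genes passed (edgeR adjusted p = 0.343, 0.874, 0.191, 0.717 and 0.563). The LCN2 value rests on DMSO 1 at 12.1 CPM, against 2.9 and 2.57 CPM in DMSO 2 and 3. Its TPA libraries 1, 2 and 3 had 3.08, 2.72 and 2.58 CPM. Without both libraries numbered 1 the log2 fold change was 0.11 for LCN2, -0.83 for MMP3, 0.84 for CDSN, 0.56 for KRT10 and -0.88 for FLG. PI3 encodes elafin, a protease inhibitor of inflamed skin. It had 0.87, 1.24 and 1.37 CPM in TPA 1, 2 and 3, against 0.0658, 0.122 and 0.0326 CPM in DMSO 1, 2 and 3 (log2 3.90 ± 0.52, adjusted p = 0.0304). Its DMSO values rest on 4 or fewer counts in a library, so PI3 passed the filter through its TPA libraries alone. With the stricter filter 1 of the 2 calls was left. MMP1, an interstitial collagenase gene, had 35.5, 19 and 22.5 CPM in TPA, against 3.52, 6.71 and 5.21 CPM in DMSO (log2 2.31 ± 0.36, adjusted p = 0.0402). Both calls were lost without any one library other than TPA 1 (adjusted p 0.0650 to 0.254 for PI3 and 0.0713 to 0.276 for MMP1). The antimicrobial genes S100A12 and DEFB4A had no read in any library, and neither had LORICRIN, a gene of the cornified envelope.

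Some epidermal genes were lowest in the library numbered 1 of each group, as IL22RA1 was, and these were chosen after their values were seen. KRT6A, a keratin of wound-edge keratinocytes, had 1.41, 21.7 and 22.2 CPM in TPA 1, 2 and 3, against 0.461, 1.19 and 1.82 CPM in DMSO 1, 2 and 3. Its log2 fold change of 3.70 ± 0.98 did not pass (adjusted p = 0.0898) and did with the block (0.00153), which called 3 members of the list higher and 0 lower, beside 4.58% of all tested genes higher and 6.52% lower. KRT16, another wound keratin, had 0.87, 9.51 and 13.1 CPM in TPA, against 2.04, 8.3 and 8.18 CPM in DMSO. S100A9, a calprotectin subunit gene, had 0.29, 6.32 and 7.5 CPM in TPA, against 1.09, 2.11 and 1.95 CPM in DMSO. In all 3 the library numbered 1 was the lowest of its group. Pair by pair KRT6A was higher with TPA for every number (log2 1.62, 4.19 and 3.6). KRT16 (-1.23, 0.2 and 0.68) and S100A9 (-1.91, 1.59 and 1.94) turned direction with number 1, as IL22RA1 did.

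**Figure D4:**
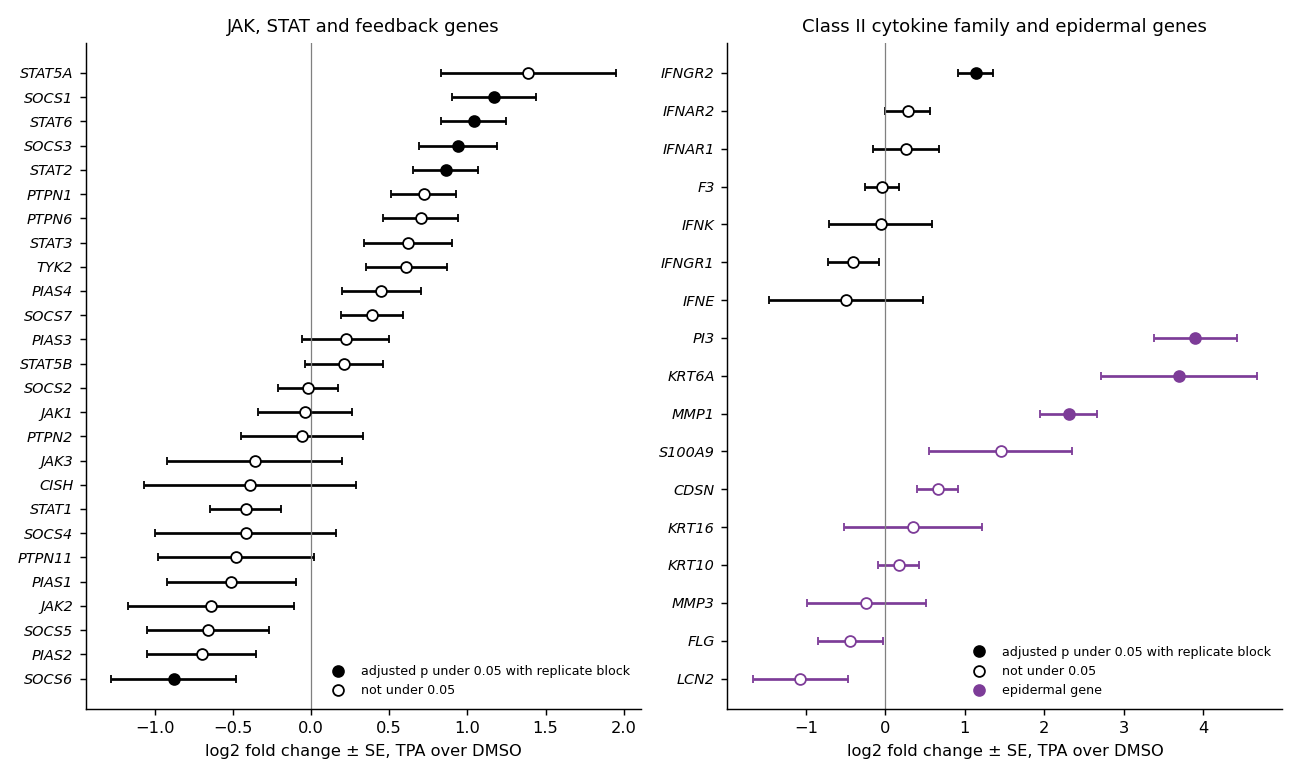
Fitted log2 fold change, TPA over DMSO, with SE bars (x axis) for the tested JAK, STAT and feedback genes (left) and for the tested genes of the class II cytokine family (right, black) and of epidermal responses (right, purple). Filled points had an adjusted p under 0.05 with the replicate block: 4 genes higher and SOCS6 lower on the left, and IFNGR2, PI3, KRT6A and MMP1 on the right.

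The genes whose log2 CPM ran most like that of IL24 over the 6 libraries were found among 12002 genes with an average log2 CPM of at least 1. They were TPRA1, TGFA, WFDC3, MYEOV, IER3 and SERPINB2, with Pearson correlations from 0.9995 to 0.9981. TGFA encodes a ligand of the EGF receptor, IER3 a stress-induced survival factor and SERPINB2 an inhibitor of plasminogen activators. Each shared with IL24 the order of TPA over DMSO and the higher value of library 1 in both groups, at sizes from log2 1.72 for TGFA to 7.26 for SERPINB2. None of the 6 lies on chromosome 1. By rank correlation 150 genes tied at the highest values, which only 2 of these 6 reached, so the choice among close genes depends on the measure. For IL20RB the 4 most alike were LSM1, RPL22L1, MINAR1 and SSBP1 (r from 0.9964 to 0.9938), all highest in TPA 1. With 6 libraries in 2 groups these correlations are a description and carry no p.

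**Figure D5:**
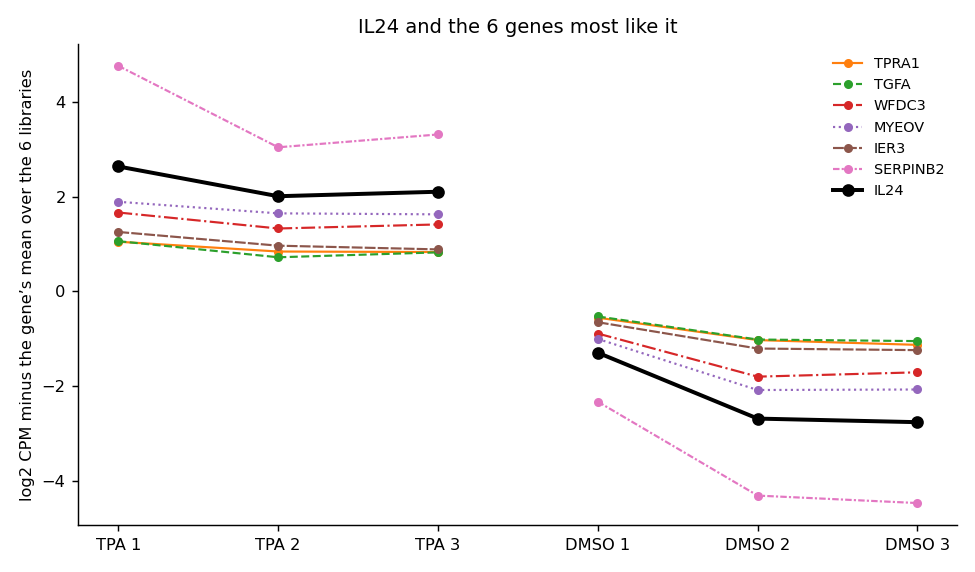
Log2 CPM minus each gene's mean over the 6 libraries (y axis) for IL24 (black) and the 6 genes most like it, in TPA 1 to 3 and DMSO 1 to 3. Lines join libraries of 1 group only for reading. All 7 genes are higher in TPA than in DMSO and highest in library 1 of each group, and SERPINB2 spans the widest range.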

How the data were processed

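The authors deposited raw read counts per gene symbol, 1 column per library. Per the submitters' processing notes HISAT2 2.1.0 and HTSeq 0.12.4 were used with builds hg38 and GRCh38. For the annotation, the strand setting and the read layout, the sources used here give nothing. Control columns were taken as DMSO by number. The quasi-likelihood test of edgeR 4.0.16 in R 4.3.3 used filterByExpr and TMM factors, and Benjamini-Hochberg adjustment ran over all 21825 genes that passed, at 0.05. SEs are the estimate over the square root of F. CPM divides counts by the TMM-scaled library size. The fits were tested on simulated data that held no effect of library number or GC content, so that test does not cover such effects. No label says that libraries come from separate cultures, and the spread behind each p-value may therefore be technical. The members and gene lists were chosen with earlier results of these data known, and members' own differences carry no p.

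Named genes were the 7 members, the called members of each of the 3 pathway lists or else the 3 with the lowest p, tested genes within 300 kb of IL24, and the 6 and 4 genes most like IL24 and IL20RB. List members named beyond this were chosen after their values were seen. TPA and DMSO libraries share numbers 1 to 3. Deviations from the group means of same-numbered libraries correlated at 0.65, 0.43 and 0.61 across genes. The 3 deviations of a group sum to 0 for each gene, so these values are not independent. They show that the libraries numbered 1 deviated alike, and do not show pairs for numbers 2 and 3. Use of the numbers as a block rests on the correlations alone, as no label states a shared culture. TPA 2 with DMSO 3 (0.61) and TPA 3 with DMSO 2 (0.48) were as high, so numbers 2 and 3 are not told apart. Gene positions, lengths and GC content came from GENCODE 29, in which 4066 of 60591 symbols matched no gene or more than 1. The GC correction removed each library's trend of log2 CPM (prior count 2) on GC content by a spline with 5 degrees of freedom. Alternatives were other scaling factors, filters, DESeq2 1.42.0, limma-voom (limma 3.58.1), the replicate block, the GC correction, a threshold of 0.01 and libraries left out.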

Additional observations from a re-analysis of the deposited data

How the results depend on the processing

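IL24 was higher with TPA under all 18 alternatives, with log2 fold changes from 4.11 to 5.0. IL20RB ranged up to 0.40 and IL10RB from 0 to 0.99, while IL22RA1 ran from -0.45 to 0.76 and was above 0 in 10 of 18. Over all genes 188 were higher and 86 lower (4814 at an unadjusted p under 0.05). The counts were 429 and 202 with no filter, 1702 and 915 with DESeq2, 708 and 679 with the GC correction, and 0 and 0 at a threshold of 0.01. The replicate block called 1000 and 1423, and 1924 and 2259 with the GC correction. Limma-voom called 130 lower, and library size alone 219 lower, with 36.5% of its calls higher against 68.6% with TMM factors (41.3% with the block). The median over all genes was -0.36 on the log2 scale with library size alone and -0.11 with TMM factors. Leaving out TPA 1 gave 5577 higher and 6297 lower, TPA 2 gave 24 and 1, TPA 3 gave 2 and 0, and DMSO 1 gave 101 and 38. Without DMSO 2 or DMSO 3 both were 0 (2612 and 2745 at an unadjusted p under 0.05). Without both libraries numbered 1 they were 7216 and 7475, from 2 close libraries against 2. The cause of these shifts was not tested.

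List counts follow the counts over all genes. DESeq2 called 7.8% of all genes higher, the replicate block 4.58%, and the block with the GC correction 9.15%. Without TPA 1, 24.6% of all genes were higher and 6297 of 22633 lower. Without both libraries numbered 1, 32.2% were higher and 7475 of 22421 lower. Among the other class II cytokine and receptor genes 1 was higher with no filter, DESeq2, the replicate block, the GC correction, and both together. Without both libraries numbered 1, 3 were higher and 2 lower, and leaving out 1 library gave 0 to 1 higher and 0 to 1 lower. Among JAK, STAT and feedback genes DESeq2 called 6 higher, the replicate block 4 higher and 1 lower, the GC correction 3 higher, and both together 5 higher and 2 lower. Without both libraries numbered 1, 13 were higher and 9 lower, and leaving out 1 library gave 0 to 13 higher and 0 to 8 lower. Among the epidermal genes 1 was higher with the stricter filter, 0 at a threshold of 0.01, and 7 higher and 2 lower without both libraries numbered 1, while leaving out 1 library gave 0 to 6 higher and 0 to 2 lower. By Spearman correlation 2 of the 6 genes most like IL24 and 1 of the 4 most like IL20RB were among the highest. Of the planned prior counts the smaller was edgeR's default, already in use, so only 2 was tried against it.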
